A study of Mus musculus with 60 samples.

Results

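The 10 genes described here are the Hoxc genes Hoxc4, Hoxc5, Hoxc6, Hoxc8 and Hoxc9 and the Hoxd genes Hoxd1, Hoxd3, Hoxd4, Hoxd8 and Hoxd9, chosen by name from the 55487 gene rows of the count tables. RNA was sequenced from E14JU mouse embryonic stem cells (ESCs), grown on gelatin in serum with LIF, the cytokine that keeps them undifferentiated. Every group carried POLE4-dTAG, a degron tag on the POLE4 subunit of DNA polymerase epsilon, so that the compound dTAG removes the protein. The WT background was the POLE4-dTAG line itself (genotype POLE4-dTAG), and the MCM2-2A background carried in addition the MCM2-2A mutation, alanine substitutions that disturb histone binding by the replicative helicase subunit MCM2 (genotype POLE4-dTAG MCM2-2A). Cells received DMSO (Ctrl, or Ctrl MCM2-2A) or 1 µM dTAG (dPOLE4, or dPOLE4 MCM2-2A) for 24 h and were collected (T0) or moved to retinoic acid (RA) without LIF for 12, 24 or 60 h (T12, T24, T60). In a separate table the 4 arms were treated for 96 h with no RA. There were 20 groups of 3 libraries, 60 in all. Each genotype was 1 clonal line, so a difference between the lines cannot be told apart from a difference between clones, and the libraries of a group, described in the methods as biological replicates, came from that 1 clone. Whether dTAG was kept in the RA medium is not given in the sources used here. A tag of this kind acts on the protein, so Pole4 RNA gives no check of the treatment.

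Hox genes encode homeobox transcription factors that lie side by side in clusters and give cells of the embryo their position along the head-to-tail axis. Genes at the 3′ end of a cluster (low numbers) are as a rule used earlier and further forward than genes at the 5′ end (high numbers), and RA, acting through RAR and RXR nuclear receptors on sites near the 3′ genes, opens the clusters in that order. In ESCs the clusters are held silent by Polycomb, and RA is a classical way to switch them on.

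The Hoxc genes lie on the plus strand of mouse chromosome 15 and the Hoxd genes on the plus strand of chromosome 2 (build mm10/GRCm38). In the annotation, Hoxc4 spans chr15:103018934-103036852, Hoxc5 chr15:102967443-103017429, Hoxc6 chr15:102998257-103011881, Hoxc8 chr15:102990607-102994111 and Hoxc9 chr15:102976439-102985099. Hoxd9 spans chr2:74697727-74700208, Hoxd8 chr2:74704615-74707933, Hoxd3 chr2:74711927-74748442, Hoxd4 chr2:74711929-74729160 and Hoxd1 chr2:74762980-74765142. Some of these genes share exons, so their counts could be divided between copies and are uncertain. Hoxd3 shared 53.1% of its exon bases with the read-through gene Gm28230 and 9.26% with Hoxd4, Hoxd4 shared 39.1% with Gm28230, and Hoxc5 shared 5.37% with Hoxc10. Hoxd3 and Hoxd4 also lay across the antisense gene Hoxd3os1, over 8.28% and 11.8% of their exon bases. The library kit kept strand, but the strand setting of the counting is not given in the sources used here, so sense and antisense reads over these bases may not have been separated.

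Promoters, from 250 bases before to 50 bases after the RefSeq start (build GRCm38.p6), were found for 6 of the 10 genes, Hoxc4, Hoxd1, Hoxd3, Hoxd4, Hoxd8 and Hoxd9. They were searched on both strands for the hexamer AGGTCA, for its variant AGTTCA and for its variant GGGTCA, letters that RAR and RXR can bind. AGGTCA was in 4 of the 6, Hoxc4, Hoxd3, Hoxd4 and Hoxd8, and in 16.3% of all 32851 promoters of that length. At least 1 of the 3 hexamers was in the same 4 of the 6, and in 37.5% of all promoters. AGTTCA, in 14% of all promoters, was found in Hoxc4 only among the 6, and GGGTCA, in 13.7%, in none. None of the 6 held the direct repeat AGGTCANNAGGTCA, which occurred in 3 promoters of all, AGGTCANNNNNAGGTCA, also in 3, or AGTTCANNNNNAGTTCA, in 8. Positions are those of the leftmost plus-strand base of a match. For AGGTCA it lay at -146 from the start of Hoxc4, at -161 for Hoxd3, at -145 for Hoxd4 (these on the minus strand) and at -135 for Hoxd8 (plus strand). The AGTTCA of Hoxc4 lay on the minus strand at -184. The sequences given are of the gene called earliest under RA (Hoxc4), the Hoxd gene of the same paralogue group (Hoxd4), and the Hoxd genes at the 5′ end of the set (Hoxd8 and Hoxd9), each 5′ to 3′ on the plus strand with hexamer matches in capitals. A match is a description of the letters, not a binding site.
Hoxc4, chr15:103034145-103034444: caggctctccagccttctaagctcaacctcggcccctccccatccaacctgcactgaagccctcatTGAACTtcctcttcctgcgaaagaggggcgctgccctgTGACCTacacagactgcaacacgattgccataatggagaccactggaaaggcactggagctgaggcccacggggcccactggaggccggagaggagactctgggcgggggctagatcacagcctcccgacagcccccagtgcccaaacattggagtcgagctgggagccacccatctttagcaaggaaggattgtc
Hoxd4, chr2:74721728-74722027: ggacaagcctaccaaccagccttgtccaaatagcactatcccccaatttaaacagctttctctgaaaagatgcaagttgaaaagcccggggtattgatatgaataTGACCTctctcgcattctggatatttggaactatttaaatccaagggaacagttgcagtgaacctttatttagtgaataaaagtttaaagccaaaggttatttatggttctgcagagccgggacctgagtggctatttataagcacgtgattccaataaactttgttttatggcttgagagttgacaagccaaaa
Hoxd8, chr2:74704365-74704664: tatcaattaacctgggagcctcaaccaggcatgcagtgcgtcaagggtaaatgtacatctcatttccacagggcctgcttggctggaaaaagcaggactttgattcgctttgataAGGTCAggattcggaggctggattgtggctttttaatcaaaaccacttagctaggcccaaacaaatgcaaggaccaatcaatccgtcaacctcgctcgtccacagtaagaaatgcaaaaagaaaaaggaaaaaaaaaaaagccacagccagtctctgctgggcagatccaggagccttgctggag
Hoxd9, chr2:74697513-74697812: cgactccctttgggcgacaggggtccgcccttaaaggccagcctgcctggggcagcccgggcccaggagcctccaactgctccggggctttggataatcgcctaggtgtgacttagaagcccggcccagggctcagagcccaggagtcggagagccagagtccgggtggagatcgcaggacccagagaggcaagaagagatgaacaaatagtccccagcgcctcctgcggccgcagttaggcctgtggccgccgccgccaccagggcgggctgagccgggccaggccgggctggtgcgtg
Hoxd9 thus had none of the 3 hexamers in this window, as did Hoxd1. The Hoxc4 and Hoxd4 starts used by RefSeq lay inside the gene spans above, which begin further upstream.

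Library totals ran from 10461077 to 46609151 counts in the 48 libraries of the RA series and from 7126100 to 23598266 in the 12 of the 96 h table. At T0 the libraries had the labelled cell type: the 8 pluripotency markers Pou5f1, Nanog, Sox2, Zfp42, Klf4, Esrrb, Tfcp2l1 and Dppa5a summed to 3660 to 3790 CPM (counts scaled to library size) in Ctrl and 3890 to 4300 CPM in Ctrl MCM2-2A, each gene above 1 CPM on average. At T60 the same sum was 324 to 415 CPM in Ctrl, 351 to 416 in dPOLE4, 741 to 929 in Ctrl MCM2-2A and 908 to 1160 in dPOLE4 MCM2-2A, so that the lines differed in marker levels at the time when the Hox genes were highest. The sum of 8 neural markers (7 of them above 1 CPM on average in Ctrl, 6 in the others) was 313 to 348 CPM in Ctrl, 281 to 291 in dPOLE4, 230 to 266 in Ctrl MCM2-2A and 180 to 199 in dPOLE4 MCM2-2A at T60, and that of 6 endoderm markers, each above 1 CPM, 293 to 365, 238 to 287, 527 to 585 and 412 to 459 CPM. In these bulk samples fewer cells of a type and less RNA per cell cannot be told apart, here and in every result below.

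At T0 the 10 genes were at or near the level of no reads. Hoxc5 had 0 counts in all 3 Ctrl libraries, and Hoxd3 had 0 in Ctrl, dPOLE4 and dPOLE4 MCM2-2A. Hoxc4 was at 0.227, 0.057 and 0.0506 CPM in the Ctrl libraries, from 4, 1 and 1 counts. Hoxd8 was at 0.963, 0.228 and 0.303 CPM in Ctrl, from 17, 4 and 6 counts, and Hoxd9 at 0.737, 0.114 and 0.404 CPM, both with their highest value in replicate 1, which was also the highest for Hoxd1 (0.34, 0.057 and 0 CPM). Summed over the 5 Hoxc genes the Ctrl mean was 0.379 CPM, and over the 5 Hoxd genes 1.12 CPM.

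**Figure D1:**
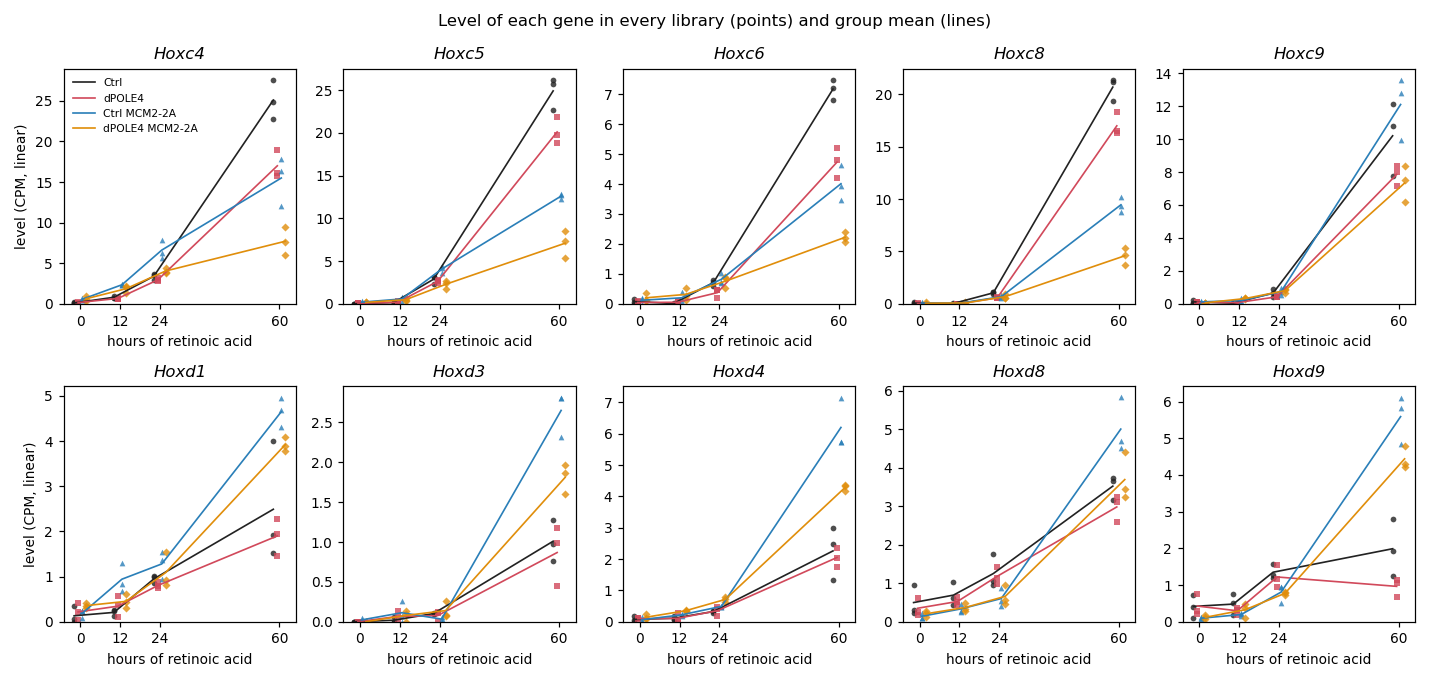
CPM (linear axes, a panel per gene) against hours of RA, with each point a library and each line the mean of 3, for the 4 arms. The T60 values stand above those at T0 in every panel and arm except Hoxd9 in dPOLE4, and at T60 the Ctrl mean is the highest of the 4 for Hoxc4, Hoxc5, Hoxc6 and Hoxc8 and the Ctrl MCM2-2A mean the highest for Hoxc9 and the 5 Hoxd genes.

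Under RA, Hoxc4 was the earliest of the genes to be called. Hoxc4, the most 3′ Hoxc gene and a factor of the cervical and upper thoracic region, was already at 0.95, 0.739 and 0.739 CPM at T12 in Ctrl, and all 3 libraries stood above those of T0. It rose by a log2 fold change of 2.85 ± 0.5 (SE; edgeR quasi-likelihood test, Benjamini-Hochberg adjusted p = 0.000947), where 7.24% of all features tested rose. Of the 10 genes only Hoxc4 and 1 other had enough reads to be tested at T12. In dPOLE4, Hoxc4 rose as well, from 0.102, 0.25 and 0.111 CPM to 0.631, 0.634 and 0.739 CPM (log2 2.06, with 7.18% of features called higher), although DESeq2 did not call it (adjusted p = 0.0202). The call was also lost without dPOLE4 T0 replicate 3 (1.83) or dPOLE4 T12 replicate 3 (1.97). In Ctrl MCM2-2A, Hoxc4 and Hoxd1, an early anterior gene, rose by T12 (log2 2.19 and 2.14, with 5.2% of features called higher), and Hoxd1 lost its call without any 1 of 4 of the 6 libraries (1.89 to 2.42). In dPOLE4 MCM2-2A none of the genes tested passed (4.3% of features), Hoxc4 at 1.4 (adjusted p = 0.0111), and DESeq2 called 1.

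By T24, 6 of the 7 genes tested in Ctrl had risen, where 13.5% of all features had. The T0 counts were so few that most of the genes passed the filter on low counts through the RA libraries alone. A gene that entered a comparison with T0 in this way had to be higher, so the counts of called genes and their medians in the comparisons with T0, at T12, T24 and T60, are descriptions, and nothing is read from them against the share of all features. Hoxc4 reached 2.96, 3.56 and 3.66 CPM and its neighbour Hoxc5, a factor of the same anterior group, 2.36, 3.13 and 3.16 CPM from 0 counts. Hoxc6 and Hoxc8, which pattern thoracic levels, were at 0.606 to 0.803 and at 0.909 to 1.15 CPM. Hoxd1, at 1.01, 0.981 and 0.853 CPM, rose with log2 2.86 ± 0.57 (adjusted p = 0.00068), and Hoxd9, at 1.58, 1.27 and 1.2 CPM, with log2 1.7 ± 0.4 (adjusted p = 0.00222). The call for Hoxd9 was lost without Ctrl T0 replicate 2 (log2 1.27, adjusted p = 0.0103) or replicate 3 (1.66, adjusted p = 0.0132) and without Ctrl T24 replicate 1 (1.56, adjusted p = 0.0112). Hoxd8 did not pass (1.37 ± 0.43, adjusted p = 0.0153), and Hoxc9, Hoxd3 and Hoxd4 had too few reads to be tested. All genes tested were called higher at T24 in dPOLE4 (7 of 7, 11.8% of features), Ctrl MCM2-2A (7 of 7, 14.4%) and dPOLE4 MCM2-2A (8 of 8, 10.9%), of which DESeq2 called 4 in dPOLE4 and 5 in dPOLE4 MCM2-2A. With any 1 library left out, 3 to 6 were called in dPOLE4, where Hoxc9, Hoxd1, Hoxd8 and Hoxd9 were the genes that lost their calls, and 5 to 8 in dPOLE4 MCM2-2A, where Hoxc6, Hoxd1 and Hoxd4 were.

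By T60 all 5 Hoxc genes had risen in Ctrl. Hoxc4 was at 27.6, 24.8 and 22.8 CPM (25.1 ± 2.4, SD, n = 3), Hoxc5 at 26.2, 25.7 and 22.7 CPM (24.9 ± 1.87) and Hoxc8 at 21.4, 21.2 and 19.4 CPM (20.7 ± 1.12). Hoxc9, a marker of thoracic identity, was at 12.1, 7.76 and 10.8 CPM and Hoxc6 at 7.48, 7.21 and 6.81 CPM. These values were far above every T0 library: the ratio of T60 to T0 was 230 for Hoxc4, 284 for Hoxc8, 98.5 for Hoxc6 and 80.4 for Hoxc9, and at least 456-fold for Hoxc5, whose T0 group is set at a floor of 3 counts over the group. The fitted log2 change of Hoxc4 was 7.73 ± 0.25 (edgeR, adjusted p = 1.19e-12).

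The 5 Hoxd genes had risen as well in Ctrl at T60. Hoxd8, a paralogue of Hoxc8, was at 3.65, 3.74 and 3.17 CPM, 7.17 times its T0 level. Hoxd1, whose paralogue group is the most anterior, was at 4.01, 1.92 and 1.53 CPM, with replicate 1 well above the others. Hoxd4 was at 2.98, 2.47 and 1.34 CPM, Hoxd9 at 2.8, 1.92 and 1.25 CPM and Hoxd3 at 0.973, 1.28 and 0.767 CPM, the last from 16, 14 and 8 counts. The summed level was 11.3 ± 3.18 CPM for the 5 Hoxd genes and 88.0 ± 6.23 CPM for the 5 Hoxc genes (SD, n = 3). The ratios of T60 to T0 were 31.1 for Hoxd4, 19.5 for Hoxd1, 4.75 for Hoxd9 and at least 18.4 for Hoxd3. All 10 genes were called higher at T60 than at T0 in Ctrl, where 26.9% of all features were, under the limit of the filter given above, with log2 changes from 2.26 ± 0.45 (Hoxd9, adjusted p = 0.000327) upward and a median of 7.73 over the Hoxc and 4.25 over the Hoxd genes, against -0.013 over all features.

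In the other arms the same genes responded. In Ctrl MCM2-2A and dPOLE4 MCM2-2A all 10 were called higher at T60 (26.3% and 23% of features), and in dPOLE4 8 of the 9 tested (25.6%). The exception was Hoxd9 in dPOLE4, at 0.768, 0.292 and 0.222 CPM at T0 and 0.685, 1.15 and 1.05 CPM at T60, groups that overlapped (1.27 ± 0.42, adjusted p = 0.0136). Hoxd9 was also not called between T24 and T60 in the WT background, where its log2 change was 0.61 in Ctrl (adjusted p = 0.0711) and -0.32 in dPOLE4 (adjusted p = 0.364), and it was 2.89 in Ctrl MCM2-2A. Of the 10 genes, 9 rose between T24 and T60 in Ctrl (19.8% of features) and 8 in dPOLE4 (17.9%). All 10 rose in Ctrl MCM2-2A (18.2%) and dPOLE4 MCM2-2A (15.4%). Genes such as Hoxd3, at 0.101, 0.109 and 0.1 CPM at T24 in Ctrl, passed the filter through T60 alone and had to be higher. Nothing is read from these counts of genes against the shares of all features. For Hoxd1 in Ctrl the change from T24 to T60 was 0.87 without Ctrl T60 replicate 1 (adjusted p = 0.0297), and the call was lost.

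**Figure D2:**
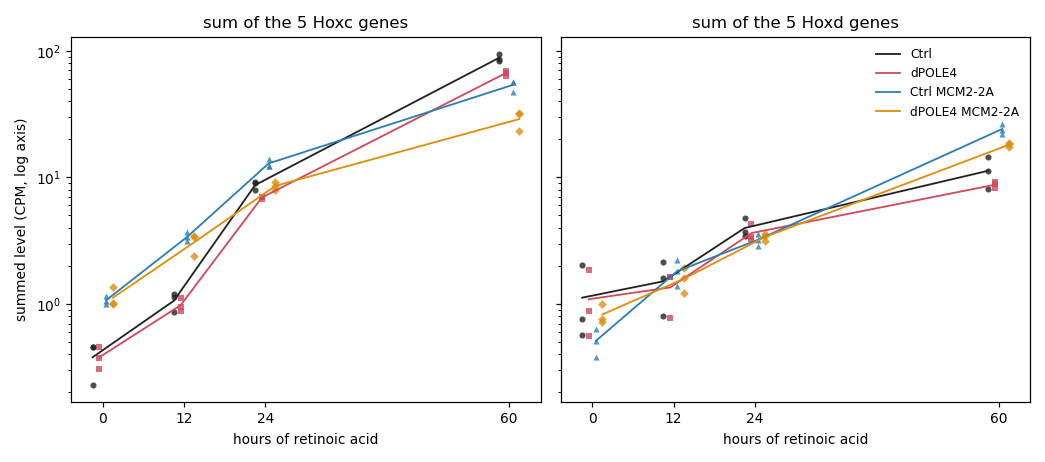
Summed CPM (log axis) of the 5 Hoxc genes and of the 5 Hoxd genes against hours of RA in the 4 arms, with points for libraries and lines for means of 3. The Hoxc sum of Ctrl MCM2-2A starts above that of Ctrl and ends below it (53.7 against 88.0 CPM), and the Hoxd sum of Ctrl MCM2-2A ends above that of Ctrl (24.1 against 11.3 CPM) after overlapping with it at T0 (0.511, 0.382 and 0.634 against 2.04, 0.57 and 0.758 CPM, with Ctrl replicate 1 high).

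Levels were compared between genes per length, as CPM per kilobase of exon. In Ctrl at T60 the order was Hoxc4 (9.77), Hoxc5 (8.05), Hoxc8 (7.29), Hoxc9 (4.21), Hoxc6 (2.98), Hoxd1 (1.34), Hoxd8 (1.28), Hoxd9 (0.93), Hoxd4 (0.768) and Hoxd3 (0.24). Hoxc5 and Hoxc8 overlapped in their libraries, as did each neighbouring pair from Hoxd1 to Hoxd4. The order followed neither cluster strictly from 3′ to 5′, since Hoxc6 stood below Hoxc8 and Hoxc9, and Hoxd3 below all the others. In dPOLE4 the first 3, Hoxc4 (6.6), Hoxc5 (6.52) and Hoxc8 (6.01), overlapped. In Ctrl MCM2-2A Hoxc9 (4.98) stood second after Hoxc4 (6.02), followed by Hoxc5 (4.09) and Hoxc8 (3.34), and Hoxd9 (2.62), Hoxd1 (2.5), Hoxd4 (2.1) and Hoxd8 (1.82) stood above Hoxc6 (1.67). Hoxc9 overlapped with both Hoxc4 and Hoxc5 there, as did each neighbouring pair from Hoxd9 to Hoxc6. In dPOLE4 MCM2-2A Hoxc9 (3.02) and Hoxc4 (3) overlapped, as did Hoxc4 and Hoxc5 (2.3) and Hoxc5 and Hoxd1 (2.1), and Hoxc8 (1.62) stood below Hoxd9 (2.08) without overlap.

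The comparison of the lines asks whether the histone-binding mutation of MCM2 alters how the genes stay off and are switched on. For the Hoxc genes one property of the line bears on every value. In Ctrl MCM2-2A against Ctrl, the median log2 difference of genes on chromosome 15 outside the Hoxc cluster was 0.56 at T0 (677 genes, 87% of them higher), 0.51 at T12, 0.52 at T24 and 0.47 at T60 (682 genes, 89.1% higher), and it was 0.53 to 0.44 in the dTAG arms at these times. Within 1 Mb of the Hoxc cluster the T60 median was 0.37 (45 genes). On chromosome 2 outside Hoxd the median at T60 was 0 (1312 genes), and within 1 Mb of the Hoxd cluster 0.01 (11 genes). Called differences of the 5 Hoxc members between the lines are therefore given both as fitted and relative to the chromosome 15 median.

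Before and early in RA, Hoxc4 was higher in the MCM2-2A line. At T0 Hoxc4 was at 0.418, 0.765 and 0.487 CPM in Ctrl MCM2-2A, above all 3 Ctrl libraries (0.227, 0.057 and 0.0506), and Hoxc5 was at 0.279, 0.153 and 0.171 CPM against 0 counts. Hoxc8 and Hoxc9 averaged 0.0695 and 0.122 CPM in Ctrl and 0.0709 and 0.121 CPM in Ctrl MCM2-2A. None of the 10 genes passed the filter on low counts in the 6-library fit of this comparison. Over all groups of the table, edgeR called Hoxc4 higher (2.19 ± 0.55, adjusted p = 0.00111), Hoxc5 higher (adjusted p = 0.000965, against a group at 0 counts) and Hoxd8 lower (-1.98 ± 0.57, adjusted p = 0.00429). The share of all features called was not taken for that fit or for the fit with no filter. For Hoxc4 and Hoxc5 at T0, no value relative to the chromosome 15 median (0.56) was fitted. With no filter the 6-library fit called 3 genes. With the filter kept, leaving out Ctrl T0 replicate 1 gave 1 call, against 0 with all 6 libraries. At T12 Hoxc4 was at 2.36, 2.41 and 2.29 CPM against 0.95, 0.739 and 0.739, groups that did not overlap. The difference was log2 1.51 ± 0.23 (edgeR, adjusted p = 0.000446), and relative to the chromosome 15 median it was 1 (adjusted p = 0.00607). Hoxd1 was higher as well, at 0.838, 0.689 and 1.3 CPM against 0.271, 0.123 and 0.227 (2.04 ± 0.42, adjusted p = 0.00339). These 2 were the only genes of the 10 that could be tested at T12, and 6.93% of all features were called higher and 7.62% lower. Hoxd1 passed the filter on low counts through the Ctrl MCM2-2A libraries alone, so it had to be higher. Nothing is read from these 2 calls against the shares of all features. The Hoxd1 call was lost without any 1 of the Ctrl T12 libraries (1.84 to 2.33) and without Ctrl MCM2-2A T12 replicate 1 (2.12) or replicate 3 (1.79).

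The same held for Hoxc4 with dTAG, at 2.09, 1.35 and 2.14 CPM in dPOLE4 MCM2-2A and 0.631, 0.634 and 0.739 CPM in dPOLE4 at T12 (1.49 ± 0.28, adjusted p = 0.000293, and 0.97 relative to the chromosome 15 median, adjusted p = 0.00905), where 9.88% of features were called higher and 8.52% lower. At T24 Hoxc4 was at 5.64, 6.3 and 7.92 CPM in Ctrl MCM2-2A against 2.96, 3.56 and 3.66 in Ctrl (0.98 ± 0.16, adjusted p = 7.63e-05), the only call among the 9 genes tested, against 9.71% of features higher and 7.6% lower. Relative to the chromosome 15 median this difference was 0.45 and no longer called (adjusted p = 0.0269). Hoxc8 already stood the other way at T24, at 0.653, 0.832 and 0.56 CPM against 1.15, 0.909 and 1.1, which was not called as fitted (-0.55, adjusted p = 0.145) and was called lower relative to the chromosome 15 median (-1.07, adjusted p = 0.00711). Hoxd8, at 0.534, 0.872 and 0.4 CPM against 1.75, 1.05 and 0.954 in Ctrl, and Hoxd9, at 0.95, 0.515 and 0.96 CPM against 1.58, 1.27 and 1.2, also stood below each Ctrl library at T24, and neither was called (-0.95, adjusted p = 0.0327, and -0.81, adjusted p = 0.0381). With dTAG none of the 9 genes tested at T24 was called (8.73% of features higher, 7.34% lower), 6 of them had an unadjusted p under 0.05, and DESeq2 called none.

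At T60, 4 of the 5 Hoxc members were lower in Ctrl MCM2-2A than in Ctrl, and 3 of the 5 Hoxd members were higher. Hoxc4 was at 17.9, 12.1 and 16.4 CPM against 27.6, 24.8 and 22.8, Hoxc5 at 12.3, 12.7 and 12.8 CPM against 26.2, 25.7 and 22.7, Hoxc6 at 3.93, 3.46 and 4.65 CPM against 7.48, 7.21 and 6.81, and Hoxc8 at 10.2, 8.79 and 9.35 CPM against 21.4, 21.2 and 19.4. The groups did not overlap for any of these 4 genes. The share of all features without overlap was not taken, so overlap between groups is a description of the libraries throughout. The log2 differences were -0.71 ± 0.13 for Hoxc4 (adjusted p = 0.000381), -0.97 ± 0.09 for Hoxc5 (7.94e-07), -0.84 ± 0.16 for Hoxc6 (0.000582) and -1.12 ± 0.1 for Hoxc8 (5.32e-07), where 7.93% of all features were called lower. Relative to the chromosome 15 median they were -1.18, -1.44, -1.32 and -1.6, all called. Hoxc9 did not follow, at 12.8, 9.93 and 13.6 CPM against 12.1, 7.76 and 10.8, with groups that overlapped (0.22 ± 0.16, adjusted p = 0.262, and -0.25 relative to the chromosome, adjusted p = 0.218). Without Ctrl MCM2-2A T60 replicate 2 the Hoxc4 difference was -0.55, under the fold threshold of 0.58.

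Hoxd3, Hoxd4 and Hoxd9 stood the other way. Hoxd4, a paralogue of Hoxc4, was at 5.74, 7.15 and 5.72 CPM in Ctrl MCM2-2A against 2.98, 2.47 and 1.34 in Ctrl (1.42 ± 0.22, adjusted p = 0.000122). Hoxd9 was at 4.84, 6.11 and 5.82 CPM against 2.8, 1.92 and 1.25 (1.44 ± 0.23, adjusted p = 0.000135), and Hoxd3, a factor of the neck vertebrae, at 2.32, 2.81 and 2.81 CPM against 0.973, 1.28 and 0.767 (1.41 ± 0.26, adjusted p = 0.000473). None of the 3 overlapped between the lines, and 8.97% of all features were called higher. Hoxd1, at 4.31, 4.69 and 4.96 CPM against 4.01, 1.92 and 1.53, and Hoxd8, at 4.69, 5.82 and 4.5 CPM against 3.65, 3.74 and 3.17, also lay above all Ctrl libraries but did not pass (0.82 ± 0.26, adjusted p = 0.0174, and 0.53 ± 0.18, adjusted p = 0.0269).

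**Figure D3:**
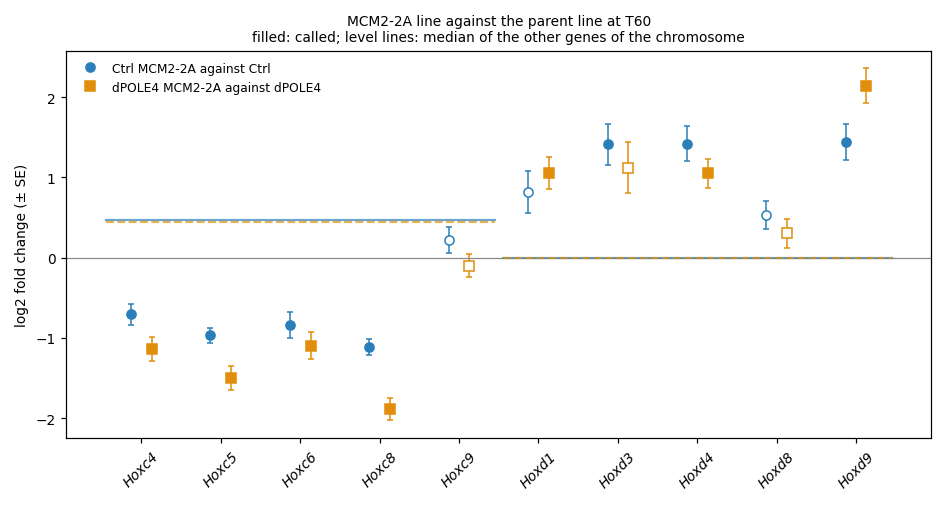
Log2 fold change with its SE (bars) for the MCM2-2A line against the WT background at T60 in the DMSO arms and in the dTAG arms, with filled points for calls and level lines for the median of the other genes of chromosome 15 or chromosome 2. Hoxc4, Hoxc5, Hoxc6 and Hoxc8 lie below 0 in both arms while the chromosome 15 median lies above it, and Hoxd4 and Hoxd9 lie above 0 and are called in both.

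With dTAG, in libraries separate from those of the DMSO arms, the lines differed as follows. Hoxc4 (9.52, 6.06 and 7.56 CPM against 16.1, 15.8 and 18.9), Hoxc5 (7.39, 5.32 and 8.57 against 19.7, 21.9 and 18.8), Hoxc6 (2.39, 2.07 and 2.2 against 4.19, 4.79 and 5.21) and Hoxc8 (4.68, 3.72 and 5.36 against 16.5, 16.3 and 18.3) were lower in dPOLE4 MCM2-2A than in dPOLE4 with no overlap. The log2 differences were -1.14 ± 0.15, -1.5 ± 0.15, -1.1 ± 0.17 and -1.89 ± 0.14 (edgeR, largest adjusted p = 0.000191), where 9.25% of features were called lower. Hoxd1 (3.9, 3.77 and 4.08 CPM against 2.28, 1.95 and 1.46), Hoxd4 (4.32, 4.36 and 4.17 against 1.75, 2.04 and 2.34) and Hoxd9 (4.22, 4.78 and 4.31 against 0.685, 1.15 and 1.05) were higher, again with no overlap. Their differences were 1.05 ± 0.2, 1.05 ± 0.18 and 2.14 ± 0.22 (largest adjusted p = 0.000743), where 11.2% of features were called higher. Hoxc9 was at 7.49, 6.17 and 8.34 CPM against 7.16, 8.03 and 8.37 (-0.1, adjusted p = 0.576), Hoxd3 at 1.87, 1.97 and 1.6 CPM against 0.99, 0.444 and 1.17 (1.12 ± 0.32, adjusted p = 0.0125) and Hoxd8 at 3.23, 3.45 and 4.4 CPM against 2.59, 3.24 and 3.1 (0.3, adjusted p = 0.214). Relative to the chromosome 15 median, the 4 Hoxc calls held at -1.58, -1.95, -1.54 and -2.33, and Hoxc9 was -0.55 (adjusted p = 0.00657), just under the fold threshold. The marker sums given above differed between the lines at this time, and so did that of 7 fibroblast markers, at 367 to 514 CPM in Ctrl, 299 to 317 in dPOLE4, 169 to 184 in Ctrl MCM2-2A and 69.2 to 85.6 in dPOLE4 MCM2-2A, with Lum at 0 in the last. The sum of 6 mesoderm markers was 11 to 14, 14.5 to 15.7, 15.5 to 19.5 and 23.1 to 29.8 CPM, with Msgn1 at 0 in Ctrl. The part of these cell types in the Hox differences was not tested.

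The difference between the lines in the RA response itself, from T0 to T60, does not carry a shift that is the same at both times: its median over chromosome 15 outside Hoxc was -0.1 (743 genes) in the DMSO arms and -0.09 (740 genes) in the dTAG arms. In the DMSO arms the rise was smaller in Ctrl MCM2-2A for Hoxc4 (log2 difference -2.9 ± 0.59, adjusted p = 0.00149) and Hoxc5 (-6.03 ± 0.94, adjusted p = 0.000239), where 4.4% of all features were called lower. As ratios of T60 to T0, Hoxc4 went up 230-fold in Ctrl and 30-fold in Ctrl MCM2-2A, and Hoxc5 at least 456-fold and 63.7-fold, so the fitted Hoxc5 difference, set against a group at 0 counts, is no measure of its size. The rise was larger in Ctrl MCM2-2A for Hoxd8 (2.49 ± 0.63, adjusted p = 0.00761) and Hoxd9 (3.36 ± 0.7, adjusted p = 0.00184), where 4.7% of features were called higher. Hoxd8 went up 7.17-fold in Ctrl and 42-fold in Ctrl MCM2-2A, and Hoxd9 4.75-fold and 52.8-fold. Hoxc6 (-1.78, adjusted p = 0.132), Hoxc8 (-1.25, adjusted p = 0.33) and Hoxc9 (0.17, adjusted p = 0.909) did not pass. From T0 to T24 the response differed between the lines for none of the 9 genes tested, in the DMSO arms (1.12% of features lower, 1.06% higher) or the dTAG arms (0.816% lower, 0.438% higher), with 1 and 2 genes at an unadjusted p under 0.05 and 0 called by DESeq2.

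Both Hoxd calls rested on Ctrl T0 replicate 1, the library in which Hoxd8 and Hoxd9 were highest before RA. Without it the differences were 1.63 for Hoxd8 (adjusted p = 0.071) and 2.72 for Hoxd9 (adjusted p = 0.0204), and both calls were lost. The Hoxd8 call was also lost without Ctrl T60 replicate 1 (2.56) or replicate 3 (2.47), Ctrl MCM2-2A T0 replicate 1 (2.37) or replicate 3 (2.24) and Ctrl MCM2-2A T60 replicate 2 (2.4), and the Hoxc4 call without Ctrl T0 replicate 3 (-2.54, adjusted p = 0.0102). In the dTAG arms, which share no library with these, the rise was smaller in dPOLE4 MCM2-2A than in dPOLE4 for Hoxc4 (-3.33 ± 0.51, adjusted p = 0.000205) and Hoxc5 (-3.19 ± 0.69, adjusted p = 0.00376), against 3.84% of features lower. It was larger for Hoxd9 (3.62 ± 0.6, adjusted p = 0.00042), against 4.38% of features higher, at 31.1-fold against 2.43-fold. Hoxd8 did not pass there (0.8, adjusted p = 0.355), nor did Hoxc6 (-2.99 ± 0.78, adjusted p = 0.0131). The Hoxc5 call was lost without dPOLE4 T0 replicate 1 (-3.14) or replicate 2 (-3.02) and without dPOLE4 MCM2-2A T0 replicate 1 (-3.1) or replicate 3 (-2.91).

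Under loss of POLE4 in the WT background none of the genes was called at any time. At T0 and 96 h none had enough reads to be tested. At T12 2 and at T24 8 were tested, where 0% of features were called by edgeR, 0 and 2 of the genes had an unadjusted p under 0.05, and DESeq2 called 0. At T60, where 0.134% of features were called lower and 0.0584% higher, all 10 genes were tested, 6 of them (5 Hoxc, 1 Hoxd) had an unadjusted p under 0.05 and DESeq2 called 0. Hoxc4 came nearest, at 16.1, 15.8 and 18.9 CPM in dPOLE4 against 27.6, 24.8 and 22.8 in Ctrl, without overlap. Its log2 difference of -0.56 ± 0.1 (edgeR, adjusted p = 0.00951) lay just under the fold threshold of 0.58. Hoxc6, at 4.19, 4.79 and 5.21 CPM against 7.48, 7.21 and 6.81, was at -0.58 ± 0.15 (adjusted p = 0.0652) and Hoxd9, at 0.685, 1.15 and 1.05 CPM against 2.8, 1.92 and 1.25, at -1.03 ± 0.32 (adjusted p = 0.133). The other genes ranged from -0.47 (Hoxd1) to -0.17 (Hoxd4). All 10 values were below 0, with a median of -0.33 against 0.002 over all features.

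In the MCM2-2A background the loss of POLE4 lowered 3 Hoxc genes at T60. Hoxc4 was at 9.52, 6.06 and 7.56 CPM in dPOLE4 MCM2-2A against 17.9, 12.1 and 16.4 in Ctrl MCM2-2A (-0.99 ± 0.18, adjusted p = 0.00574), Hoxc5 at 7.39, 5.32 and 8.57 CPM against 12.3, 12.7 and 12.8 (-0.83 ± 0.15, adjusted p = 0.00609) and Hoxc8 at 4.68, 3.72 and 5.36 CPM against 10.2, 8.79 and 9.35 (-1.03 ± 0.15, adjusted p = 0.00181). None of the 3 overlapped, and 1.19% of all features were called lower. Hoxc6 (2.39, 2.07 and 2.2 CPM against 3.93, 3.46 and 4.65) and Hoxc9 (7.49, 6.17 and 8.34 CPM against 12.8, 9.93 and 13.6) were also lower in every library but did not pass (-0.84 ± 0.18, adjusted p = 0.0138, and -0.71 ± 0.15, adjusted p = 0.0133). The Hoxd genes were between -0.55 (Hoxd3 and Hoxd4) and -0.25 (Hoxd1), none called. The median over the 10 genes was -0.63, against 0.004 over all features. The calls were few and sensitive to single libraries: 0 were left without Ctrl MCM2-2A T60 replicate 3 or without dPOLE4 MCM2-2A T60 replicate 2, and 1 without Ctrl MCM2-2A T60 replicate 1, whereas DESeq2 called 4. The pluripotency sum was 741 to 929 CPM in Ctrl MCM2-2A and 908 to 1160 CPM in dPOLE4 MCM2-2A, ranges that overlapped. The other marker sums did not overlap. In dPOLE4 MCM2-2A the neural sum (180 to 199 CPM against 230 to 266), the endoderm sum (412 to 459 against 527 to 585) and the fibroblast sum (69.2 to 85.6 against 169 to 184) were lower in every library, and the mesoderm sum (23.1 to 29.8 against 15.5 to 19.5) was higher. Their part in these differences was not tested. At T24 none of the 9 genes tested was called (0.504% of features lower, 0.515% higher), 2 had an unadjusted p under 0.05, Hoxc4 (-0.68, adjusted p = 0.0214) and Hoxc5 (-0.84, adjusted p = 0.02), and DESeq2 called 0. At T0 the 1 gene tested was not called (0.0495% of features lower, 0.022% higher), nor were the 3 tested at T12 (0.188% lower, 0.216% higher), by edgeR or by DESeq2, with 0 and 1 at an unadjusted p under 0.05, and at 96 h no gene had enough reads to be tested.

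**Figure D4:**
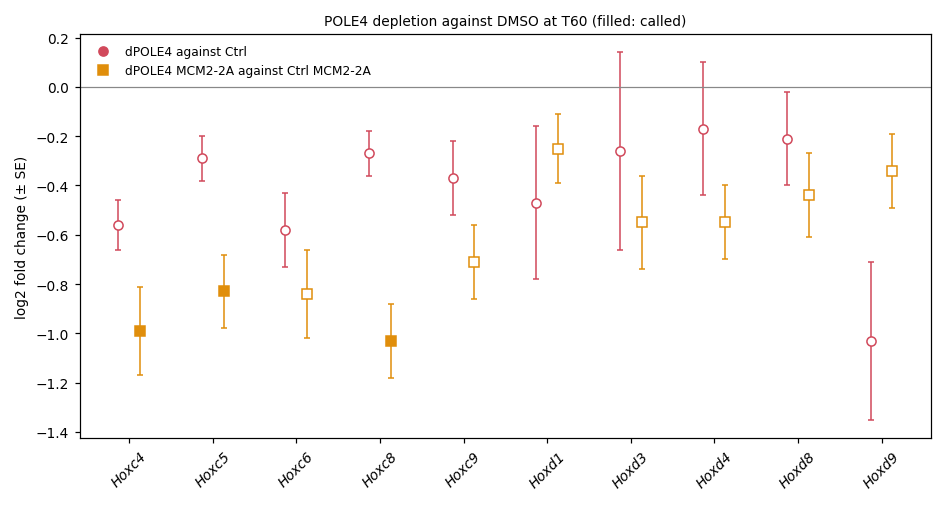
Log2 fold change with its SE (bars) for dPOLE4 against Ctrl in the WT background and for dPOLE4 MCM2-2A against Ctrl MCM2-2A at T60, with filled points for calls. All 20 points lie below 0, and the 3 calls are Hoxc4, Hoxc5 and Hoxc8 in the MCM2-2A background.

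Whether the POLE4 effect differed between the backgrounds was tested directly. At T60 none of the 10 genes was called (0.0685% of features lower, 0.0316% higher), 2 had an unadjusted p under 0.05, and DESeq2 called 0. The nearest was Hoxc8, with a difference of -0.75 ± 0.17 (edgeR, adjusted p = 0.0505), followed by Hoxc5 (-0.53 ± 0.18, adjusted p = 0.254), and Hoxc4 stood at -0.42 (adjusted p = 0.535) and Hoxd9 at 0.71 (adjusted p = 0.499). The RA response from T0 to T60 likewise gave no call for dPOLE4 minus Ctrl, where 0% of features were lower and 0.0104% higher, or for dPOLE4 MCM2-2A minus Ctrl MCM2-2A (0.173% lower, 0.0814% higher). In the latter Hoxc4 was at -1.49 ± 0.45 (adjusted p = 0.134). At T0, T12 and T24 the POLE4 effect differed between the backgrounds for none of the 1, 4 and 9 genes tested (0.00526%, 0.0159% and 0.0351% of features lower, 0% higher), by edgeR or by DESeq2, with 0, 1 and 2 at an unadjusted p under 0.05. In the 2 tests of the RA response at T60, 1 and 4 of the 10 genes had an unadjusted p under 0.05, and DESeq2 called 0 in both.

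Ratios of counts between members within a library were looked at after the differences above had been seen, as a description. At T60 the ratio of Hoxc9 to Hoxc8 counts was 0.565, 0.366 and 0.559 in Ctrl, 0.435, 0.493 and 0.457 in dPOLE4, 1.25, 1.13 and 1.46 in Ctrl MCM2-2A and 1.6, 1.66 and 1.56 in dPOLE4 MCM2-2A, so that it was above 1 in all 6 MCM2-2A libraries and in none of the others. A shift common to chromosome 15 cancels in this ratio. The mean ratio of Hoxd9 to Hoxd8 was 0.558, 0.32, 1.13 and 1.22 in the same order, and that of Hoxd4 to Hoxc4, which belong to the same paralogue group on different chromosomes, 0.0887, 0.121, 0.42 and 0.575. Other pairs did not shift upward: the mean ratio of Hoxc8 to Hoxc6 was 2.88, 3.61, 2.38 and 2.06, and that of Hoxc5 to Hoxc4 0.993, 1.2, 0.842 and 0.929.

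**Figure D5:**
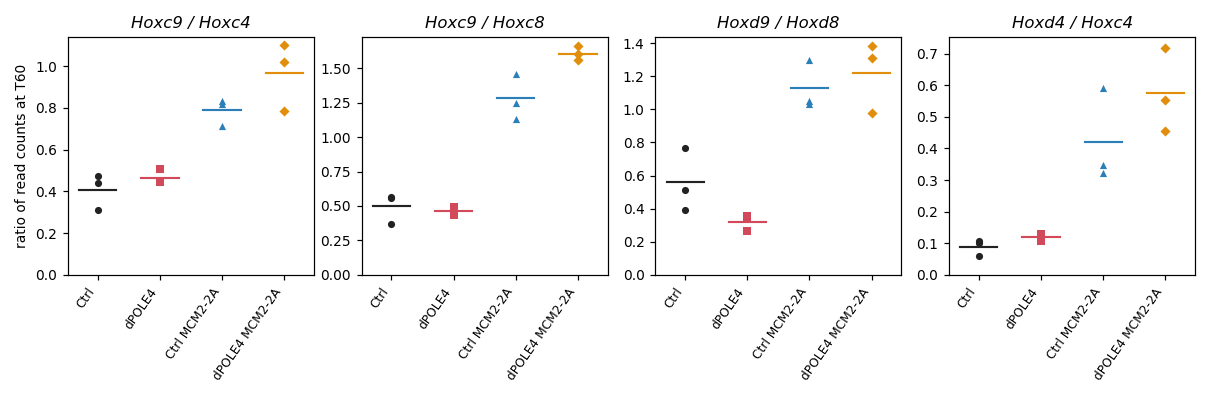
Ratio of the counts of pairs of members within each library at T60 (points) with the mean of 3 (bars), in the 4 arms, for Hoxc9 over Hoxc4, Hoxc9 over Hoxc8, Hoxd9 over Hoxd8 and Hoxd4 over Hoxc4. In these 4 pairs the means of both MCM2-2A arms stand above those of both WT arms, which was not so for Hoxc8 over Hoxc6 or Hoxc5 over Hoxc4.

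Without RA, at 96 h of treatment, the genes stayed near 0. The summed Hoxc level averaged 0.248 CPM in Ctrl and in dPOLE4, 1.0 in Ctrl MCM2-2A and 1.23 in dPOLE4 MCM2-2A. Hoxc4 was at 0, 0.0556 and 0.0863 CPM in Ctrl and 0.693, 0.559 and 0.157 CPM in Ctrl MCM2-2A, above every Ctrl library. With dTAG it was at 0.191, 0.096 and 0.0537 CPM in dPOLE4 and 0.945, 0.526 and 0.422 CPM in dPOLE4 MCM2-2A. As at T0, none of the 10 genes passed the filter on low counts when the lines were compared at 96 h. The chromosome 15 median outside Hoxc was 0.53 in the DMSO arms and 0.46 in the dTAG arms at that time.

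The other genes of the clusters that could be tested at T60 were all higher in Ctrl MCM2-2A than in Ctrl, 5 of 5, where 8.97% of all features were. A gene of low level can pass the filter on low counts through the MCM2-2A libraries alone, and it then has to be higher. Gm28230 shares exon bases with Hoxd3 (53.1% of that gene) and Hoxd4 (39.1%), so its counts are not separate from theirs. Nothing is therefore read from the number of these genes called, here or with dTAG, against the shares of all features. They were the 5′ genes Hoxc10 (1.82 ± 0.21, adjusted p = 5.06e-06), Hoxc13 (2.15 ± 0.19, adjusted p = 4.14e-07) and Hoxd13 (1.57 ± 0.26, adjusted p = 0.000182), which pattern lumbar to tail levels and the limb, the read-through gene Gm28230 (1.5 ± 0.24, adjusted p = 0.000142) and the noncoding RNA Haglr (1.04 ± 0.28, adjusted p = 0.00685). The values of Hoxc10 and Hoxc13 are as fitted, beside a chromosome 15 median of 0.47, and the Hoxc cluster thus held genes called in both directions. With dTAG, Hoxc10 (1.64), Hoxc13 (2.33), Hoxd11 (1.7), Hoxd13 (1) and Gm28230 (1.14) were called higher, where 11.2% of features were, and Haglr (0.79, adjusted p = 0.053) was not. Hoxc13 averaged 1.89 CPM in Ctrl, 8.29 in Ctrl MCM2-2A and 10.6 in dPOLE4 MCM2-2A. None of these genes was called for the loss of POLE4 at T60 in either background.

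Lists of Hox paralogues, cofactors and regulators were counted at T60. Of all features, 8.97% were called higher and 7.93% lower in Ctrl MCM2-2A against Ctrl, and 11.2% and 9.25% with dTAG. All values of these lists, here and in the next paragraph, are as fitted. Those between the lines carry any shift of the chromosome a gene lies on, such as that of chromosome 15 (median 0.47 in the DMSO arms). Of single chromosomes, only 2 and 15 had a median taken. Chromosomes 11 and 14, left out together with 15 in an alternative scaling, had none. Of the 17 tested Hoxa and Hoxb genes of the anterior to thoracic paralogue groups, from Hox1 to Hox9, all rose under RA in Ctrl and in Ctrl MCM2-2A, with medians of 7.97 and 6.26. Of all features 26.9% and 26.3% were called higher. Only 4 of the 17 passed the filter on low counts when these lines were compared at T0. Most of the 17 thus passed through the T60 libraries and had to be higher, and nothing is read from their count or medians. In Ctrl MCM2-2A against Ctrl, 1 of the 17 was higher, Hoxa9 (2.01 ± 0.18, adjusted p = 4.57e-07), and 6 were lower, Hoxb3, Hoxb4, Hoxb5, Hoxb6, Hoxb8 and Hoxb9 (-0.79, -1.13, -0.88, -0.69, -0.88 and -0.73), with a median of -0.54 against 0.01 over all features. All 6 lower genes belong to the Hoxb cluster, for which no value relative to its chromosome was fitted. With dTAG 2 of the 17 were higher and 11 lower (median -0.9). Of 9 TALE genes, whose homeodomain proteins bind DNA together with Hox proteins, 5 were lower in Ctrl MCM2-2A, among them Pbx3 (-0.64), Meis1 (-1.57), Meis2 (-1.18) and Pknox2 (-1.21), and 0 higher, and with dTAG 0 were higher and 5 lower. The caudal genes Cdx1 (2.14) and Cdx2 (1.44), which act on central and posterior Hox genes, were higher.

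Among 18 genes of RA reception and metabolism, Rarg (1.46) and Aldh1a3 (2), a receptor and an RA-making enzyme, were higher in Ctrl MCM2-2A, and Rarb (-0.6), Aldh1a1 (-2.07), Aldh1a2 (-1.11), Dhrs3 (-0.89) and Crabp1 (-1.09) were lower, with a median of -0.15. Unlike the Hoxc members, none of these RA genes was fitted relative to the median of its chromosome, so a shift of the chromosome is not removed from these values. Rarb and Dhrs3 are themselves induced by RA. Of 14 Polycomb genes 2 were higher, Mtf2 and Cbx7, and 2 lower, Suz12 (-0.67) and Pcgf2 (-0.6), counts near the share of all features given above. As for the RA genes, no value relative to the chromosome was fitted. With dTAG the counts higher and lower were 2 and 4 for the RA genes, 2 and 0 for the caudal genes and 1 and 1 for Polycomb. For the loss of POLE4 in the MCM2-2A background at T60, 0 of the Hoxa and Hoxb paralogues were higher and 6 lower, Hoxb2, Hoxb3, Hoxb5, Hoxb6, Hoxb8 and Hoxb9 (median -0.54), where 1.19% of all features were. Of the 9 TALE genes 3 were lower, among them Meis1 (-0.62) and Meis2 (-0.97), and of the 17 RA genes tested 2, Crabp2 (-0.91) and Stra6 (-0.58), while Cdx1 (0.65) was higher and no Polycomb gene was called. In the WT background no paralogue, TALE or Polycomb gene was called for the loss of POLE4 at T60, and 1 RA gene was lower.

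Across the means of the 16 groups of the RA series, the genes outside the Hox clusters whose pattern was most like that of the Hoxc members included Nek9 (Pearson r 0.988), Invs (0.987), 5730585A16Rik (0.986) and Pcbd1 (0.985), and those most like the Hoxd members were Onecut2 (0.987), Agrn (0.985), Slco3a1 (0.984), Pcdhga3 (0.981) and Gxylt1 (0.98), from 17545 genes searched. The points share time under RA, so these values describe likeness of shape only. Among the members themselves r ran from 0.74 (Hoxc4 and Hoxd9) to 0.98.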

How the data were processed

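Total RNA depleted of rRNA was sequenced from strand-specific libraries. According to the methods and the submitters' processing notes, the authors trimmed reads (cutadapt 4.2), aligned them to mm10 with STAR keeping multimapping reads, and counted genes and repeats with TEcount. The deposited values are raw counts per feature (56633 features, 55487 of them genes). Symbols and spans came from GENCODE M21 (GRCm38), promoters from RefSeq. Fold changes came from edgeR 4.0.16 (R 4.3.3) quasi-likelihood fits on the 6 libraries compared (12 for differences of effects), with filterByExpr (minimum count 10, minimum total 15), TMM scaling and Benjamini-Hochberg adjustment over all features. A gene was called at an adjusted p under 0.01 and an absolute log2 fold change over 0.58, in 49 comparisons. CPM used TMM-scaled totals within each table. Comparisons of one arm share control libraries. DESeq2 1.42.0, DESeq2 size factors, no filter, fits over all groups, a replicate block, centring on chromosome 15, TMM without chromosomes 11, 14 and 15, and leaving out each library were alternatives. Scripts were tested on simulated counts. Of simulated log2 changes of 1, 69.8% were recovered for T60 against T0 in Ctrl. For the difference in RA response between Ctrl MCM2-2A and Ctrl it was 33.3%, and 85.3% of changes of 2. Differences of effects of such a size can thus go uncalled. The rule for named genes took all 10 members, the other genes of their clusters, fixed lists of paralogues, cofactors and regulators, and for each cluster the 5 most similar genes. Some genes that this rule names are not reported here. Members and lists were chosen with earlier results of these data known. The smallest difference between replicate libraries exceeded sampling noise (lowest chi-square per degree of freedom 2.7 over 60 pairs). Same-numbered libraries deviated together (each pair's correlation over 0.1) in 6 of the 49 comparisons. These were the POLE4 effects at T0 and 96 h in both backgrounds and both line comparisons at 96 h. Among them only the POLE4 effect at T0 in the MCM2-2A background had a member tested, 1, which was not called. The replicate block thus had no call to lose there, and it called 0 members.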

Additional observations from a re-analysis of the deposited data

Results flagged for a closer look

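The RA response from T0 to T60 differed between the lines for 4 genes in the DMSO arms, by the interaction term of the edgeR fit. Ctrl MCM2-2A minus Ctrl was -2.9 for Hoxc4, -6.03 for Hoxc5, 2.49 for Hoxd8 and 3.36 for Hoxd9 (log2). In the dTAG arms, dPOLE4 MCM2-2A minus dPOLE4 was -3.33 for Hoxc4, -3.19 for Hoxc5 and 3.62 for Hoxd9. The Hoxd8 and Hoxd9 values of the DMSO arms were 1.63 and 2.72 without Ctrl T0 replicate 1, no longer called. The Ctrl T0 group of Hoxc5 had 0 counts in all 3 libraries, so its fitted value depends on the prior count.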

How the results depend on the processing

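No direction of a called gene reversed under any alternative run, and the alternatives moved counts of called members mostly where few reads were left to test. By all-groups fit, the count under RA was 2 at T12 in Ctrl (1 in the 6-library fit) and 2 in dPOLE4 MCM2-2A (0), and the line difference was 3 at T0 in the DMSO arms (0), 1 at T0 with dTAG (0) and 3 at T12 with dTAG (1). DESeq2 gave 0 at T12 in dPOLE4 (1), 4 at T24 in dPOLE4 (7), 1 at T12 (0) and 5 at T24 (8) in dPOLE4 MCM2-2A. With no filter the counts were 1 at T12 in dPOLE4 MCM2-2A (0), 3 at T0 and 2 at 96 h for the line in the DMSO arms (0 and 0), 1 at T0 and 1 at 96 h with dTAG (0 and 0), and 1 for the T60 difference of RA response between dPOLE4 MCM2-2A and Ctrl MCM2-2A and 1 for that of the POLE4 effect (0 and 0). For loss of POLE4 in the MCM2-2A background the count was 2 with no filter, 1 with the replicate block and 1 over all groups at T24 (0), and 5 with no filter and 5 with the block at T60 (3). With the replicate block it was 1 for RA at T12 in dPOLE4 MCM2-2A (0). Apart from the 6 comparisons in which the numbers paired the libraries, they shared only a number, with mean correlations of deviations from -0.13 to 0.27 over the 49 comparisons. Leaving out 1 library each, the counts ranged from 0 to 1 for RA at T12 in dPOLE4 and in dPOLE4 MCM2-2A, 1 to 2 in Ctrl MCM2-2A, 3 to 6 at T24 in dPOLE4, 5 to 8 at T24 in dPOLE4 MCM2-2A, 0 to 1 for the line at T0 and 96 h and 1 to 2 at T12 in the DMSO arms, 0 to 1 at T0 with dTAG, 2 to 4 for the T60 difference of RA response between the lines in the DMSO arms, and 0 to 4 for loss of POLE4 in the MCM2-2A background at T60. Scaled by library totals, T60 means were 13.3 CPM for Hoxc5 in Ctrl MCM2-2A, and 4.18 for Hoxd1 and 4.57 for Hoxd4 in dPOLE4 MCM2-2A. The few counts at T0 limit every fold against T0, and the causes of these changes were not tested.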
